A study of Homo sapiens with 2 samples.

Results

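The genes described here make cholesterol and fatty acids, move cholesterol in the cell, or control these pathways through the sterol regulatory element binding proteins (SREBPs). They were 34 named genes of 20263 in the table, sorted into 5 steps by textbook function: the mevalonate pathway, squalene to cholesterol, SREBP regulation, uptake, transport and storage of cholesterol, and fatty acids. All 34 were found by gene name, with 235 transcripts. RNA-seq was run on the H9 line, an established line of human embryonic stem cells, 48 h into treatment with a small interfering RNA that targets HNRNPA1 (siHNRNPA1) or with control small interfering RNA (sicontrol). HNRNPA1 encodes hnRNP A1, an RNA-binding protein that regulates splicing. Each condition had 1 library made from 1.4 ug of total RNA with a messenger RNA kit. Both groups were the same line, with no transgene or deletion named in the labels. The sequence of the small interfering RNA is not given in the sources used here, and off-target effects were not tested.

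Cells build cholesterol from acetyl-CoA through mevalonate, farnesyl pyrophosphate, squalene and lanosterol. When membrane sterol is low, the escort protein SCAP carries SREBPs from the endoplasmic reticulum to the Golgi, where proteases release a fragment that enters the nucleus and activates genes of sterol and fatty acid synthesis. When sterol is plentiful, the INSIG proteins hold SCAP back, and INSIG1 is itself a target of SREBPs. SREBF2 is best known for driving sterol genes and SREBF1 for driving fatty acid genes.

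Levels are FPKM (fragments per kilobase of transcript, scaled to the depth of each library), as deposited per transcript and summed per gene. A difference is log2((siHNRNPA1 FPKM + 1)/(sicontrol FPKM + 1)), so a negative value is lower in siHNRNPA1. Folds and percentages of the sicontrol level printed for single genes are FPKM ratios without the added 1. Genes averaging 1 FPKM or more were compared, which kept 11921 genes of the table and 33 of the 34; a gene was counted as lower or higher when the difference was at least 2-fold. With 1 library per condition there is no replicate check, no test of the conditions and no p-value. Intervals of levels are 95% Poisson intervals of the gene's summed estimated counts, scaled to FPKM. They cover counting error only, and leave out the error of assigning reads among transcripts.

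The libraries held 28147828 estimated counts (siHNRNPA1) and 26680342 estimated counts (sicontrol). HNRNPA1 stood at 179.9 FPKM (177 to 183) in siHNRNPA1, against 663 FPKM (657 to 668) in sicontrol, which is 27.1% of the sicontrol level. Of 10 pluripotency markers all were measured, with summed levels of 2438 FPKM in siHNRNPA1 and 2457 FPKM in sicontrol. Of these 10, 7 were below 0 in their difference and 3 were at least 2-fold lower in siHNRNPA1 (SOX2, PODXL and DPPA4), none was at least 2-fold higher, and the median was -0.20. The share at least 2-fold lower was 30%, where 21.9% of all kept genes were lower and 12.4% higher. POU5F1, which encodes the pluripotency factor OCT4, was at 1355 FPKM in siHNRNPA1 and 864 FPKM in sicontrol, and SOX2 was at 58.3 FPKM in siHNRNPA1 and 126 FPKM in sicontrol. Of 10 fibroblast markers 4 were kept, with sums over the list of 218 FPKM in siHNRNPA1 and 264 FPKM in sicontrol, and COL3A1, DCN, FAP and LUM were at 0 in both. Of 6 neural markers 2 were kept, and the list summed to 213 FPKM in siHNRNPA1 and 77.2 FPKM in sicontrol, nearly all from NES and TUBB3; PAX6 and NEUROD1 were at or near 0 in both. None of the 8 mesoderm and endoderm markers in the table was kept (sums of 3.34 FPKM in siHNRNPA1 and 1.41 FPKM in sicontrol; GATA6 and SOX17 at 0 in both). Of 8 trophoblast and amnion markers 2 were kept, with sums of 5.86 FPKM in siHNRNPA1 and 7.84 FPKM in sicontrol, and CGA and TFAP2A at 0 in both. The part of these marker differences in the results was not tested. The 13 mitochondrially encoded genes took 18.1% of TPM in siHNRNPA1 and 28.2% in sicontrol, and this difference was not tested as a source of the others.

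Together the 34 genes summed to 2016 FPKM in siHNRNPA1, against 2389 FPKM in sicontrol. In bulk samples, fewer cells of a type and less RNA per cell cannot be told apart. Of the 33 measured genes, 11 were at least 2-fold lower in siHNRNPA1 (33.3%), where 21.9% of all kept genes were. The genes at least 2-fold higher numbered 2 (6.06%), where 12.4% of all kept genes were, and the other 20 lay within 2-fold. The median difference was -0.30 over the 33 genes and -0.13 over all kept genes. By step, the median was 0.66 in the mevalonate pathway, -0.30 from squalene to cholesterol, -0.13 in SREBP regulation, -0.87 in uptake and transport and -1.004 in fatty acids. The 33 genes thus ran in both directions, from -2.19 for SC5D to 2.37 for SREBF1. FDFT1 and SCD lay just inside the 2-fold line, both at -1.004, and NPC1 (-0.87), IDI1 (-0.80) and TM7SF2 (0.90) just outside it. The count of 11 became 6 under median ratio scaling, which sets the median of all kept genes near 0 (0.000529), and 6 with a pseudocount of 5 FPKM. Of the 11921 kept genes, 2609 were at least 2-fold lower as reported, 2193 under median ratio scaling and 947 with that pseudocount. The share of the 33 genes was thus close to that of all kept genes under median ratio scaling, and above it with the pseudocount. A pseudocount shrinks differences most in genes with low levels. A mean of 5 FPKM or more was reached by 7731 of the 11921 kept genes and by 32 of the 33. The shares with the pseudocount are therefore not of genes alike in level.

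**Figure D1:**
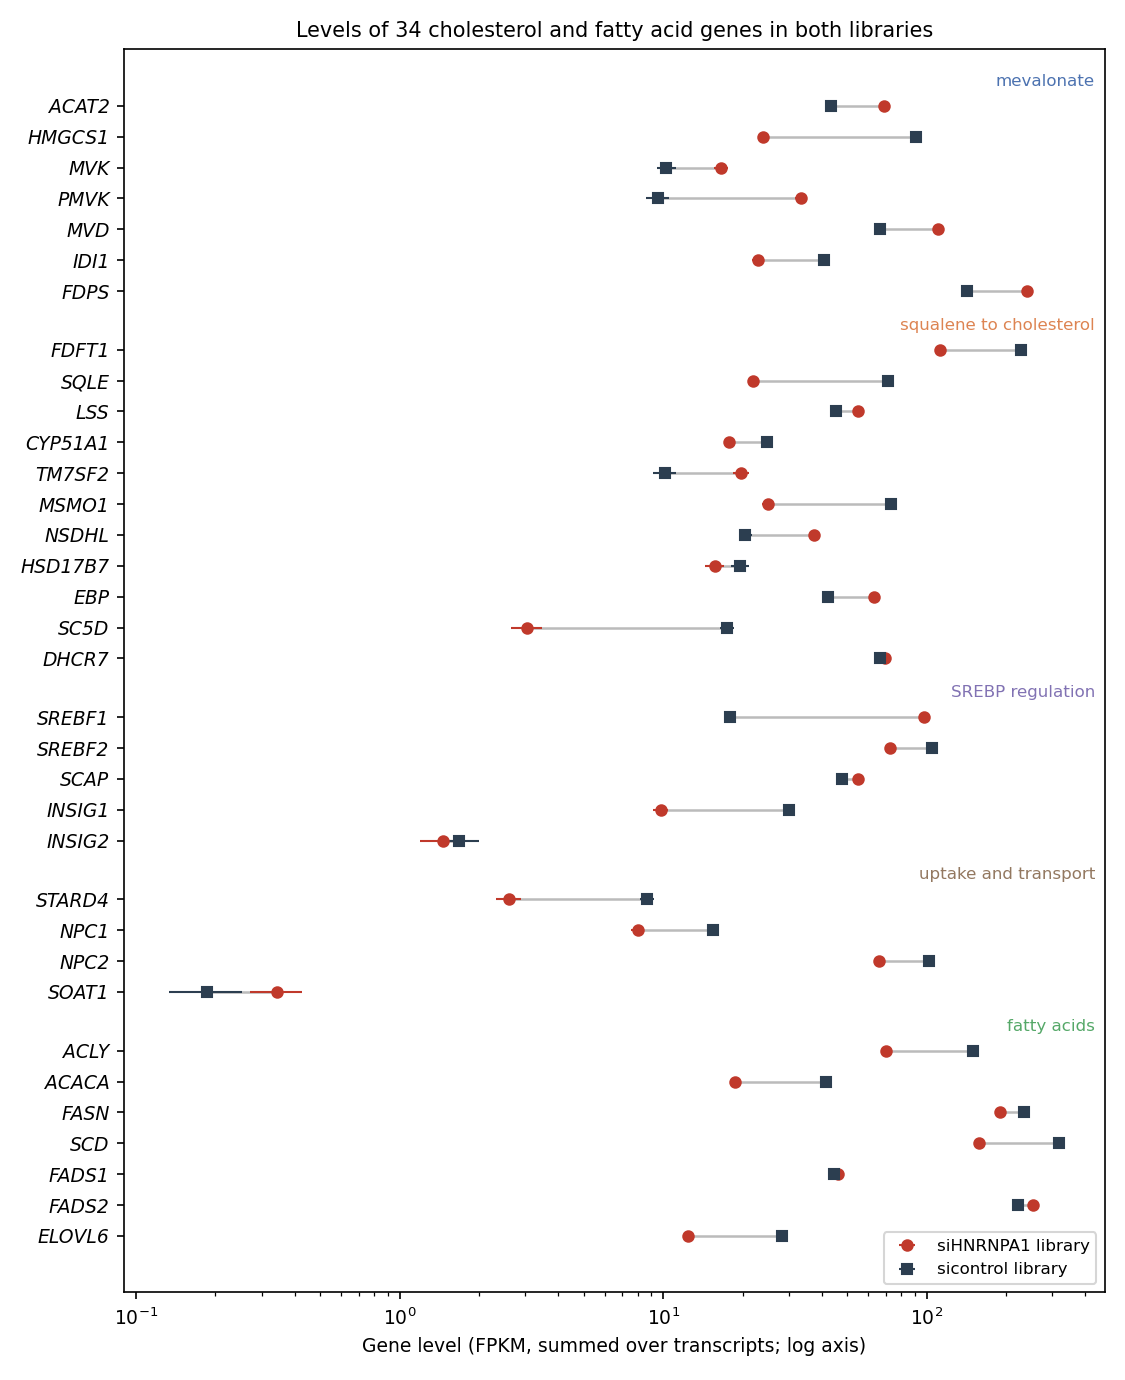
Levels of the 34 genes in FPKM on a log axis, by step, with siHNRNPA1 and sicontrol as separate points. Intervals are 95% Poisson intervals of the summed estimated counts, scaled to FPKM, and cover counting error only. HMGCS1, SQLE, MSMO1 and SC5D sit lower in siHNRNPA1, and SREBF1 and PMVK sit higher.

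The regulators of the axis differed in direction. SREBF1 (ENSG00000072310, chr17:17810399-17837002, minus strand, GRCh38), the gene of SREBP1, was at 97.4 FPKM (95.5 to 99.5; 9228 estimated counts) in siHNRNPA1, against 18.0 FPKM (17.1 to 18.9; 1601 estimated counts) in sicontrol. This was a 5.41-fold higher level, a difference of 2.37, and 99.5% of kept genes had a lower difference. SREBF2 (ENSG00000198911, chr22:41833079-41907308, plus strand, GRCh38), the gene of SREBP2, was at 72.4 FPKM (71.2 to 73.7) in siHNRNPA1, against 104.8 FPKM (103 to 106) in sicontrol, a difference of -0.53. SREBF1 thus stood above SREBF2 in siHNRNPA1 and below it in sicontrol, on the FPKM scale. INSIG1 (ENSG00000186480, chr7:155297776-155310235, plus strand, GRCh38), which retains SCAP in the endoplasmic reticulum, was at 9.77 FPKM (9.13 to 10.4) in siHNRNPA1, against 30.1 FPKM (28.98 to 31.3) in sicontrol, or 32.4% of the sicontrol level (difference -1.53). Its relative INSIG2 was at 1.45 FPKM (1.198 to 1.75) in siHNRNPA1 and 1.68 FPKM (1.40 to 1.996) in sicontrol, with overlapping intervals, so no difference was detectable at this depth. SCAP was at 54.7 FPKM in siHNRNPA1 and 47.9 FPKM in sicontrol, a difference of 0.19 that became -0.30 relative to the median of its 100 nearest genes, matched on level, GC content and transcript length. Among the 5 regulators 1 was called lower and 1 higher (20% each, where 21.9% of all kept genes were lower and 12.4% higher). SREBF1 overlaps exons of RAI1 on the other strand, and RAI1 was low in both libraries, at 1.38 FPKM in siHNRNPA1 and 3.58 FPKM in sicontrol.

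Promoters of 5 genes are shown because they belong to the regulators and to 2 of the synthesis genes that were lower. They are RefSeq sequences on GRCh38.p14, read in the direction of the gene and ending just before its outermost annotated start. Capitals mark matches on either strand to TCACNCCAC (a form of the sterol regulatory element), CCAAT (bound by NF-Y) and GGGCGG (bound by SP1-type factors); CACGTG, the E-box, was also searched. SREBPs are known to act together with NF-Y or SP1.
HMGCS1, chr5:43313513-43313662, minus strand: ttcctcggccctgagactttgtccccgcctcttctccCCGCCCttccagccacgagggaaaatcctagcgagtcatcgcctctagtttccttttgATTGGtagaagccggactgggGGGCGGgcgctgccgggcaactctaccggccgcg
MSMO1, chr4:165327419-165327622, plus strand: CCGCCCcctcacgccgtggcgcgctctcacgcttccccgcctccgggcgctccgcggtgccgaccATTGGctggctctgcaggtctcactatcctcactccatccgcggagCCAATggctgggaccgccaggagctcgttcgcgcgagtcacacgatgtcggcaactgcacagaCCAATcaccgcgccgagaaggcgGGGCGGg
INSIG1, chr7:155297628-155297775, plus strand: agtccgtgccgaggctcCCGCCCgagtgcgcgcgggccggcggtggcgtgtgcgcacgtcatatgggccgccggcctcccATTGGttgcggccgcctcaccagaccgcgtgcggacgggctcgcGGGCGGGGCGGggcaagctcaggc
SREBF2, chr22:41832855-41833078, plus strand: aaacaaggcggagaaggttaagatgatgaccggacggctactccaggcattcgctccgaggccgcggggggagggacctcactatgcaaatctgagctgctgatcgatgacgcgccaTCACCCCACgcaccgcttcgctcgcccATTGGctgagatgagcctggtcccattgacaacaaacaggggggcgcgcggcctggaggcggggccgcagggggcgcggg
SREBF1, chr17:17837003-17837236, minus strand: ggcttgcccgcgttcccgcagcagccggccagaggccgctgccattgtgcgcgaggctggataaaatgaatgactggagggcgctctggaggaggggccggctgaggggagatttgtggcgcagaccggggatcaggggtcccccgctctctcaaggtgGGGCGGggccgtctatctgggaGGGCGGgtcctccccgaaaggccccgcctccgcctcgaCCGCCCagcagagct
The SREBF2 window holds a TCACNCCAC match 107 bases before its end, followed by CCAAT on the opposite strand. The SREBF1 window holds 3 GGGCGG matches and no CCAAT. The 2 SREBF1 transcripts that start at this end held 29.2% of the gene's FPKM in siHNRNPA1 and 29.5% in sicontrol. Its other transcripts start further inside the gene, and the sequence before those starts is not shown. HMGCS1 and INSIG1 each have 1 CCAAT match and MSMO1 has 3.

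Promoter windows of 250 bases before to 50 after the start were in the RefSeq table for 30 of the 34 genes; ACAT2, FASN, FDFT1 and SQLE were not matched. A gene was counted when any of its windows held the motif on either strand. TCACNCCAC was found in 1 gene, SREBF2 (3.33%), against 1.39% of the 27305 genes in the table. CCAAT was found in 22 genes (73.3%), against 39.7% of genes in the table, and GGGCGG in 29 (96.7%), against 48.3%. CACGTG was found in 4 genes (13.3%), namely INSIG1, LSS, SC5D and SCAP, against 8.78%. These backgrounds are over all genes with a RefSeq promoter, expressed here or not. Shares among the 11921 kept genes are not given, so the gaps are not read as a feature of the pathway. Of the matched genes called lower in siHNRNPA1, 8 of 9 held CCAAT, as did 14 of the other 21. A match is a description of the letters, not of a bound site, and the spread of windows with the motif over lower and other genes was not tested.

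In the mevalonate pathway, which builds farnesyl pyrophosphate from acetyl-CoA, the genes lay on both sides of 0. The 7 genes summed to 515 FPKM in siHNRNPA1, against 404 FPKM in sicontrol, with 1 called lower, 1 called higher and 5 within 2-fold. Each call was 14.3% of the 7, where 21.9% of all kept genes were lower and 12.4% higher. HMGCS1 (ENSG00000112972, chr5:43289395-43313512, minus strand, GRCh38) encodes HMG-CoA synthase, the enzyme that makes HMG-CoA for the pathway. It was at 24.0 FPKM (23.1 to 24.9; 2772 estimated counts) in siHNRNPA1, against 91.2 FPKM (89.4 to 93.0; 9874 estimated counts) in sicontrol. This is 26.3% of the sicontrol level, a difference of -1.88, and 4.23% of kept genes had a lower one. PMVK, phosphomevalonate kinase, went the other way, at 33.5 FPKM (31.8 to 35.3; 1423 estimated counts) in siHNRNPA1 and 9.53 FPKM (8.60 to 10.5; 379 estimated counts) in sicontrol, 3.51-fold higher (difference 1.71). Neither gene kept its 2-fold call relative to its 100 nearest genes, where HMGCS1 was at -0.78 and PMVK at 0.88.

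The other mevalonate genes lay within 2-fold. ACAT2, which joins acetyl-CoA units at the start of the pathway, was at 69.1 FPKM (67.5 to 70.7) in siHNRNPA1 and 43.3 FPKM (42.0 to 44.6) in sicontrol (0.66). MVK, mevalonate kinase, was at 16.6 FPKM in siHNRNPA1 and 10.3 FPKM in sicontrol (0.64). MVD, which decarboxylates mevalonate diphosphate, was at 110.2 FPKM in siHNRNPA1 and 66.6 FPKM in sicontrol (0.72). These values put the kinases and the decarboxylase above sicontrol, although MVK and MVD became -0.03 and -0.28 relative to their nearest genes. FDPS, farnesyl diphosphate synthase, was at 239 FPKM in siHNRNPA1 and 142 FPKM in sicontrol (0.75), and it was the most abundant of the 7 in both libraries. IDI1, the isomerase between MVD and FDPS, was at 22.9 FPKM in siHNRNPA1 and 40.6 FPKM in sicontrol (-0.80), and at 0.02 relative to its nearest genes. FDPS has pseudogene copies in the annotation, and any reads shared with them could not be separated.

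From squalene to cholesterol, 4 of 11 genes were at least 2-fold lower in siHNRNPA1 (21.9% of all kept genes were) and none was at least 2-fold higher (12.4% were). The 11 genes summed to 441 FPKM in siHNRNPA1, against 618 FPKM in sicontrol. FDFT1, squalene synthase, which commits farnesyl pyrophosphate to sterols, was at 112.7 FPKM (109.9 to 116) in siHNRNPA1 and 227 FPKM (223 to 231) in sicontrol (-1.004). SQLE, squalene epoxidase, was at 21.9 FPKM (21.0 to 22.9) in siHNRNPA1 and 71.4 FPKM (69.7 to 73.1) in sicontrol, 30.7% of the sicontrol level (-1.66). MSMO1, a methylsterol monooxygenase in the removal of methyl groups from lanosterol products, was at 24.9 FPKM (23.7 to 26.2) in siHNRNPA1 and 73.4 FPKM (71.1 to 75.7) in sicontrol (-1.52). In all of these the counting intervals of the libraries lay far apart. SC5D (ENSG00000109929, chr11:121292453-121308694, plus strand, GRCh38), a sterol desaturase late in the pathway, was at 3.04 FPKM (2.65 to 3.48; 218 estimated counts) in siHNRNPA1 and 17.5 FPKM (16.5 to 18.5; 1187 estimated counts) in sicontrol. SC5D was 5.74-fold lower without the pseudocount and had a difference of -2.19 with it, and 1.95% of kept genes had a lower difference. The ratio of its count shares, which has no pseudocount, was -2.52 on the log2 scale. The exact 95% interval of that ratio from counting error was -2.74 to -2.31.

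The remaining 7 genes of this step lay within 2-fold and on both sides of 0. NSDHL and HSD17B7 act with MSMO1 in the removal of methyl groups. NSDHL was at 37.5 FPKM in siHNRNPA1 and 20.5 FPKM in sicontrol (0.84), and HSD17B7 was at 15.7 FPKM in siHNRNPA1 and 19.6 FPKM in sicontrol (-0.30). LSS, which closes the sterol rings to make lanosterol, was at 54.9 FPKM in siHNRNPA1 and 45.2 FPKM in sicontrol (0.27). These enzymes of adjoining reactions therefore differed in direction from MSMO1 or in size. CYP51A1, lanosterol demethylase, was at 17.7 FPKM in siHNRNPA1 and 24.9 FPKM in sicontrol (-0.46). EBP, a sterol isomerase, was at 63.3 FPKM in siHNRNPA1 and 42.3 FPKM in sicontrol (0.57). DHCR7, a reductase at the end of the pathway, was at 69.7 FPKM in siHNRNPA1 and 66.3 FPKM in sicontrol (0.07), and its sign changed with TPM in place of FPKM. Relative to the nearest genes, LSS, EBP and DHCR7 were below 0 and CYP51A1 was above it (0.56). TM7SF2, a sterol reductase, was at 19.8 FPKM in siHNRNPA1 and 10.2 FPKM in sicontrol (0.90). It shares exonic sequence on the same strand with VPS51, which was at 57.9 FPKM in siHNRNPA1 and 28.7 FPKM in sicontrol, and the split of their reads could not be checked.

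**Figure D2:**
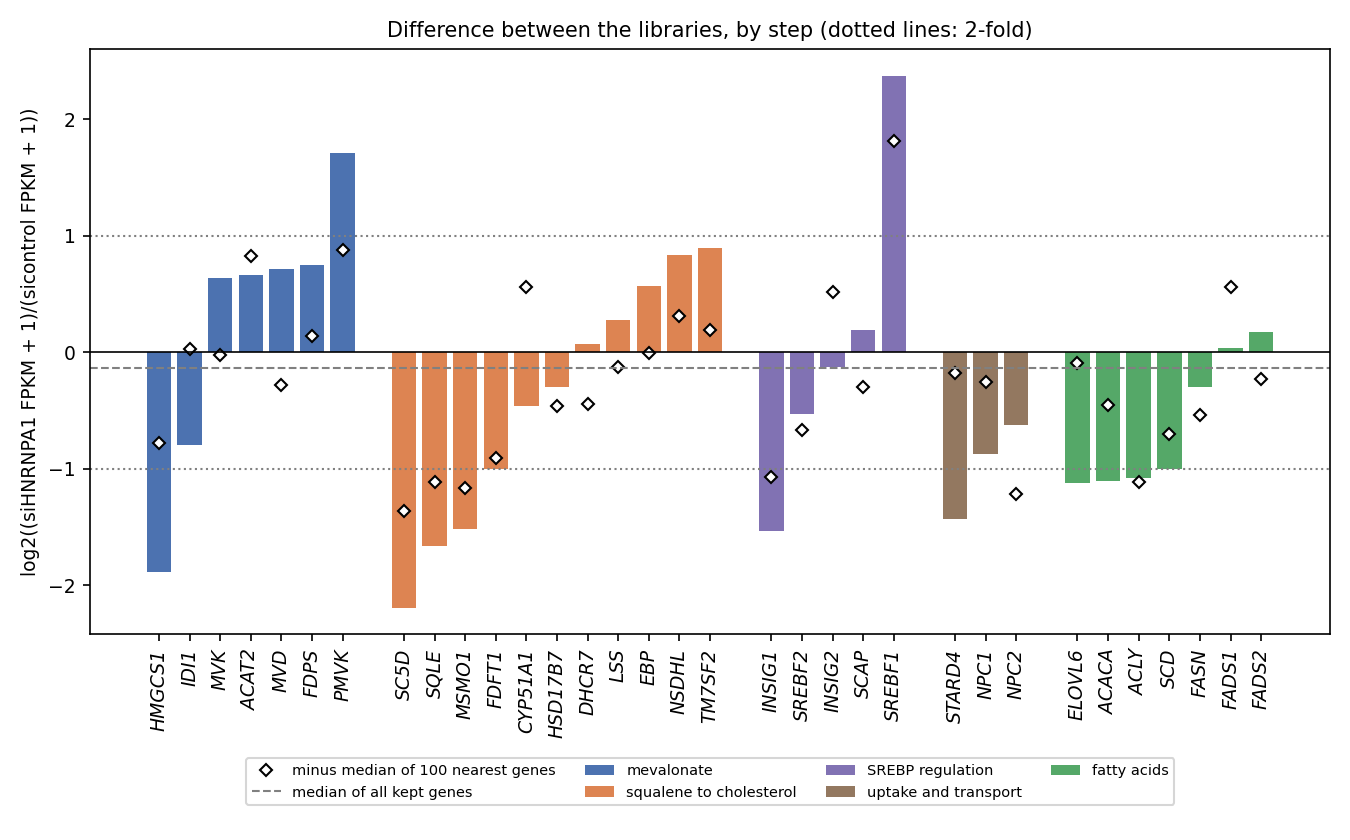
Bars show log2((siHNRNPA1 FPKM + 1)/(sicontrol FPKM + 1)) for the 33 measured genes by step, with dotted lines at 2-fold, a dashed line at the median of all kept genes (-0.13) and diamonds for the difference relative to the 100 nearest genes. SC5D at -2.19 and SREBF1 at 2.37 are the ends of the range, and most diamonds lie closer to 0 than their bars.

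In the step of uptake, transport and storage, the 3 genes above the filter, all transporters, had lower levels in siHNRNPA1. Of these, 1 passed 2-fold (33.3%, where 21.9% of all kept genes were at least 2-fold lower). STARD4, a soluble sterol carrier, was at 2.59 FPKM (2.33 to 2.88) in siHNRNPA1 and 8.69 FPKM (8.16 to 9.24) in sicontrol, a difference of -1.43. NPC1 and NPC2 hand cholesterol out of lysosomes. NPC1 was at 7.997 FPKM in siHNRNPA1 and 15.5 FPKM in sicontrol (-0.87). NPC2 was at 65.8 FPKM (63.0 to 68.8) in siHNRNPA1 and 101.9 FPKM (98.1 to 105.8) in sicontrol (-0.62). STARD4 had the lowest GC content of the 33 measured genes, 34.2% in its leading transcript, and stood at -0.18 relative to its nearest genes, while NPC2 stood at -1.22. SOAT1, which esterifies cholesterol for storage, was at 0.342 FPKM (79 estimated counts) in siHNRNPA1 and 0.186 FPKM (40 estimated counts) in sicontrol. It was the 1 gene of the 34 under the filter on low values, and no difference was read from it.

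Of the 7 fatty acid genes, 4 were at least 2-fold lower in siHNRNPA1 (21.9% of all kept genes were) and none was at least 2-fold higher (12.4% were). Under median ratio scaling none of the 4 passed 2-fold (ELOVL6 -0.97, ACACA -0.95, ACLY -0.93 and SCD -0.85), and relative to the nearest genes 1 did, ACLY. The 7 genes had sums of 747 FPKM in siHNRNPA1 and 1038 FPKM in sicontrol. ACLY, which supplies cytosolic acetyl-CoA from citrate, was at 70.3 FPKM (68.9 to 71.7) in siHNRNPA1 and 150.04 FPKM (147.9 to 152) in sicontrol (-1.08). ACACA, acetyl-CoA carboxylase, was at 18.8 FPKM (18.2 to 19.3) in siHNRNPA1 and 41.4 FPKM (40.5 to 42.3) in sicontrol (-1.10). FASN, the fatty acid synthase that follows them, was at 189 FPKM (187 to 191) in siHNRNPA1 and 233 FPKM (231 to 235) in sicontrol, and its difference of -0.30 did not reach 2-fold. Relative to the nearest genes, ACACA was at -0.46 and FASN at -0.54, so the order of their differences turned. SCD, which makes monounsaturated fatty acids, was at 158 FPKM (156 to 160.0) in siHNRNPA1 and 318 FPKM (315 to 321) in sicontrol (-1.004). ELOVL6, an elongase of saturated and monounsaturated fatty acids, was at 12.4 FPKM (11.9 to 13.0) in siHNRNPA1 and 28.3 FPKM (27.3 to 29.2) in sicontrol (-1.12). FADS1 and FADS2, the desaturases of polyunsaturated fatty acids, were nearly level. FADS1 was at 45.9 FPKM in siHNRNPA1 and 44.6 FPKM in sicontrol (0.04, and below 0 with TPM). FADS2 was at 252 FPKM in siHNRNPA1 and 223 FPKM in sicontrol (0.18, and below 0 with estimated counts scaled to the library total). FADS2 shares exonic sequence on the same strand with FEN1, at 59.9 FPKM in siHNRNPA1 and 28.7 FPKM in sicontrol, and with FADS1 on the other strand.

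The differences went with the base composition of the transcripts. For GC content, length and nearest genes, a gene's leading transcript is the one with the highest mean FPKM over both libraries. In 13 of the 34 genes, ACACA and SREBF1 among them, the libraries had different top transcripts. For these, GC content and length describe 1 transcript only. Over the 33 genes, Pearson's r between this GC content and the difference was 0.72 (Spearman's rho 0.75). Over 11916 kept genes it was 0.56 (rho 0.58). The points share the same pair of libraries, so these are descriptions across genes, which are not independent replicates. The median GC content was 44.4% in the 11 lower genes, 53.3% in the 20 within 2-fold and 61.9% in the 2 higher ones. Of the 9 genes with GC under 45%, 6 were lower, with a median of -1.12, where 44.1% of the 3774 kept genes in that range were lower. Of the 24 genes with GC of 45% or more, 5 were lower and 2 higher, with a median of 0.12, where 11.6% of the 8142 kept genes in that range were lower and 17.5% higher. Transcript length had a weaker relation, with r of -0.27 over the 33 genes and -0.43 over all kept genes.

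Relative to the median of the 100 kept genes most alike in level, GC content and length, 6 of 33 genes were at least 2-fold lower, where 8.35% of all genes were, and 1 was higher, where 8.11% were. SC5D (-1.36), SQLE (-1.11), MSMO1 (-1.16), INSIG1 (-1.07) and ACLY (-1.11) remained past 2-fold, and NPC2 joined them. SREBF1 remained higher, at 1.82. HMGCS1, FDFT1, SCD, STARD4, ELOVL6 and ACACA no longer passed 2-fold. The median over the 33 genes was -0.26 on this measure. By step, it was 0.02 in the mevalonate pathway, -0.44 from squalene to cholesterol, -0.30 in SREBP regulation, -0.26 in uptake and transport and -0.46 in fatty acids. The part of base composition in the differences was not tested beyond this subtraction.

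**Figure D3:**
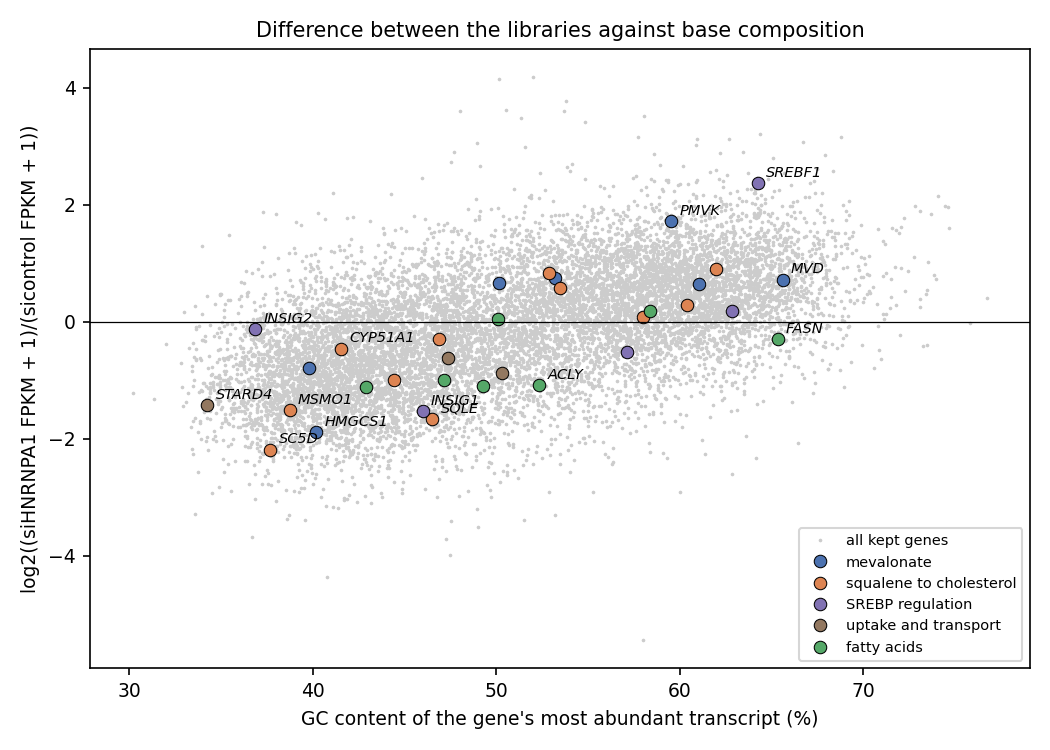
Difference between the libraries, log2((siHNRNPA1 FPKM + 1)/(sicontrol FPKM + 1)), against the GC content (%) of the leading transcript, with all kept genes in grey and the 33 measured genes coloured by step. Genes with low GC content lie lower (r = 0.72 over the 33 genes), and SREBF1 lies near the upper edge of the genes with its GC content.

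hnRNP A1 regulates splicing, so transcript shares within each gene were compared. Eligible genes had 2 or more transcripts and reached 5 FPKM in each library. Of the 27 eligible genes, 10 had a transcript whose share of the gene's FPKM differed by at least 20 percentage points (37.0%), where 40.6% of the 5715 eligible genes of the table did. The share of the 27 genes was close to this background. The transcript with the highest FPKM was the same in both libraries in 21 of the 34 genes. These include ACAT2, PMVK and SCD, which have 1 transcript each, and SOAT1, under the filter on low values, is among the others. The share over all genes is not given here, so this count is not read as a result about the set. Shares rest on the authors' assignment of reads among overlapping transcripts, whose error is not given in the sources used here.

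SREBF1 was higher in siHNRNPA1 in most of its main transcripts. Those starting at the distal end of the gene, 2 in number, summed to 28.4 FPKM in siHNRNPA1 and 5.32 FPKM in sicontrol, 5.35-fold higher, and their share of the gene was 29.2% in siHNRNPA1 and 29.5% in sicontrol. Transcripts annotated for nonsense-mediated decay, the pathway that degrades messages with early stop codons, held 43.7% of SREBF1 in siHNRNPA1 and 43.4% in sicontrol. Its coding transcripts were at 54.9 FPKM in siHNRNPA1 and 10.2 FPKM in sicontrol, 5.39-fold higher, which is close to the whole gene. Within the gene, the decay-annotated SREBF1-204 was at 31.4 FPKM in siHNRNPA1 and 2.49 FPKM in sicontrol.

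For SREBF2 and SCAP, the sum per gene and the coding transcripts gave different pictures. The coding transcripts of SREBF2 were at 44.2 FPKM in siHNRNPA1 and 43.0 FPKM in sicontrol, while its decay-annotated SREBF2-202 was at 28.2 FPKM in siHNRNPA1 and 61.8 FPKM in sicontrol. The lower SREBF2 sum thus lay in the decay-annotated transcript. Decay-annotated transcripts of SCAP held 85.8% of the gene in siHNRNPA1 and 45.2% in sicontrol. Coding transcripts of SCAP were at 7.79 FPKM in siHNRNPA1 and 26.2 FPKM in sicontrol, a difference of -1.63, although the gene's sum was slightly higher in siHNRNPA1. SCAP-201, its leading coding transcript, was at 7.12 FPKM in siHNRNPA1 and 24.4 FPKM in sicontrol, and SCAP-202 was at 16.3 FPKM in siHNRNPA1 and listed at 0 in sicontrol. Among the 14 eligible genes with decay-annotated transcripts, 2 (SCAP and TM7SF2) had a summed decay share at least 20 points higher in siHNRNPA1, where 6.37% of 2856 such genes of the table did. In 1 gene (SREBF2) it was at least 20 points lower, where 7.07% did. TM7SF2 held 26.2% in siHNRNPA1 and 3.71% in sicontrol.

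Several genes differed in which coding transcript led. NSDHL-203 was at 28.9 FPKM in siHNRNPA1 and 0.194 FPKM in sicontrol, while NSDHL-201 was at 5.80 FPKM in siHNRNPA1 and 17.8 FPKM in sicontrol. FASN-206 was at 129 FPKM in siHNRNPA1 and 69.9 FPKM in sicontrol, while FASN-201 was at 52.1 FPKM in siHNRNPA1 and 151 FPKM in sicontrol. In both genes the transcript that led in sicontrol was second in siHNRNPA1. ACACA-237 was at 12.0 FPKM in siHNRNPA1 and 0.083 FPKM in sicontrol, while ACACA-245 was listed at 0 in siHNRNPA1 and stood at 21.4 FPKM in sicontrol, and ACACA-231 was at 0.034 FPKM in siHNRNPA1 and 17.0 FPKM in sicontrol. MSMO1-202 led in both libraries, and it held 93.6% of MSMO1 in siHNRNPA1 and 67.2% in sicontrol. DHCR7-202 held 47.8% of DHCR7 in siHNRNPA1 and 17.7% in sicontrol, and the FADS2 transcript that led in siHNRNPA1 held 40.9% of FADS2 in siHNRNPA1 and 14.0% in sicontrol. NPC2-207 held 48.0% of NPC2 in siHNRNPA1 and 21.8% in sicontrol. With 1 library per condition, how much such shares vary between libraries of the same condition is unknown.

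**Figure D4:**
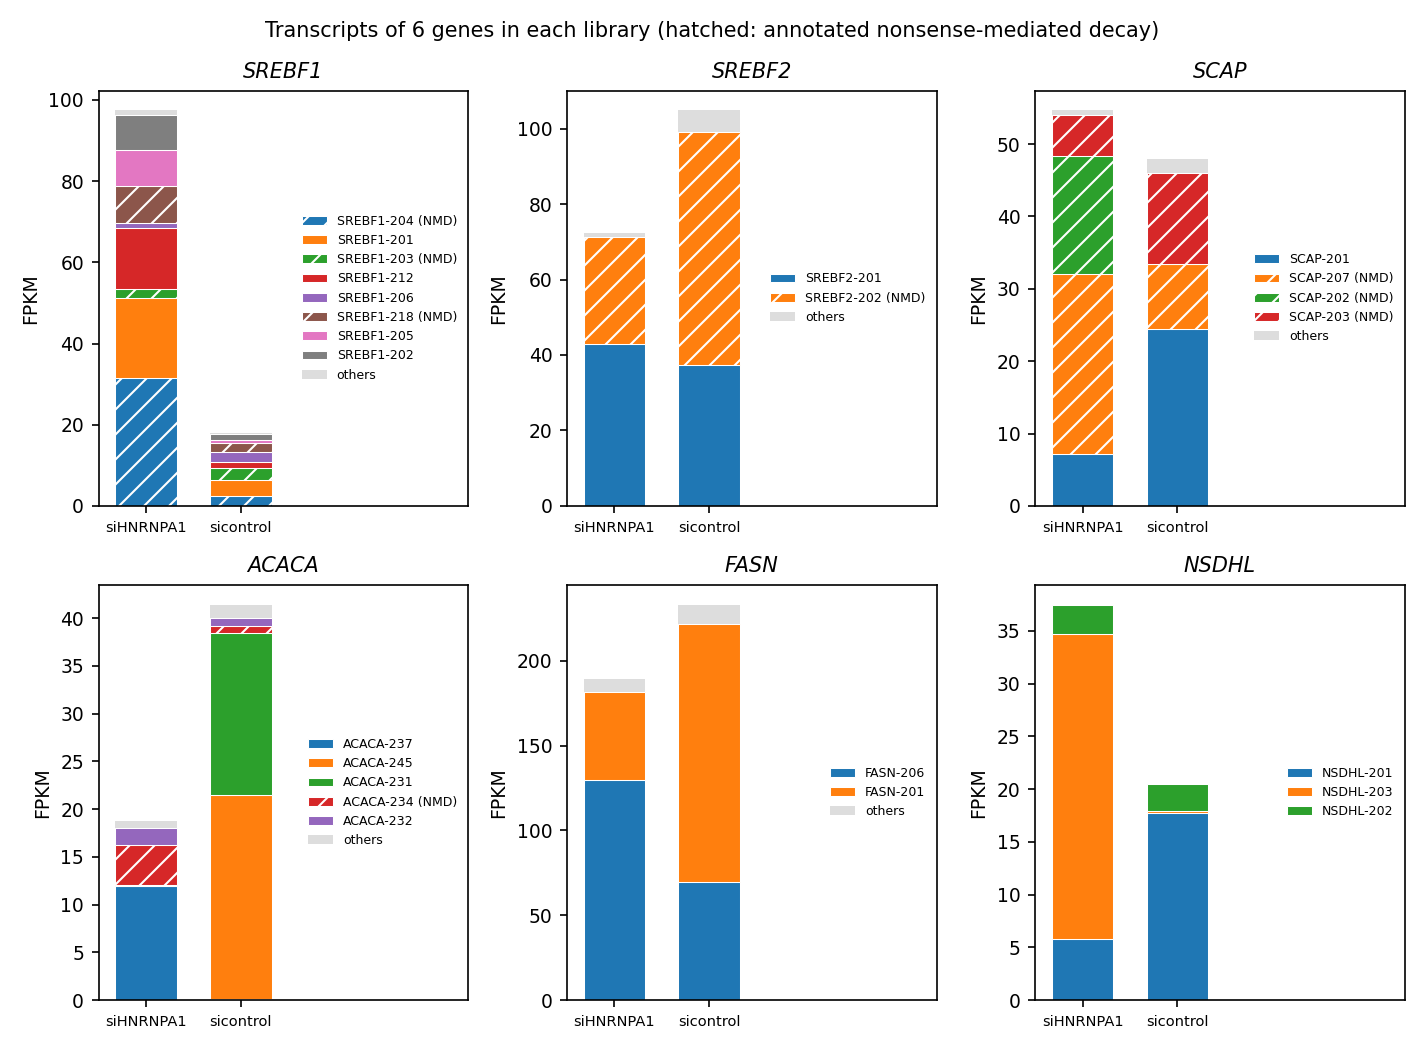
FPKM of the transcripts of 6 genes stacked per library, siHNRNPA1 left and sicontrol right in each panel, with transcripts annotated for nonsense-mediated decay (NMD) hatched. SREBF1 is taller in siHNRNPA1 in most transcripts shown, SREBF2 differs mainly in SREBF2-202, and SCAP-201 is 7.12 FPKM in siHNRNPA1 and 24.4 FPKM in sicontrol.

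Other genes of the pathway were read from 5 textbook lists holding 91 genes, of which 82 were measured. Of these, 22 were at least 2-fold lower in siHNRNPA1 (26.8%, near the 21.9% of all kept genes) and 7 at least 2-fold higher (8.54%, where 12.4% of all kept genes were), with a median of -0.40. Relative to the nearest genes, 10 of the 82 were lower and 4 higher, where 8.35% of all genes were lower and 8.11% higher. The median of the 82 turned to 0.07. Of 16 measured genes that process SREBPs or degrade their partners, 3 were lower (18.75%) and 1 higher (6.25%). The median of this list was -0.01, and 0.19 relative to the nearest genes. PAQR3, a Golgi anchor of SCAP, was at 0.633 FPKM in siHNRNPA1 and 4.71 FPKM in sicontrol, and ERLIN1, of the complex that degrades sterol-regulated proteins of the endoplasmic reticulum, was at 2.87 FPKM in siHNRNPA1 and 8.89 FPKM in sicontrol. The isoprenoid branches attach farnesyl and geranylgeranyl groups or make coenzyme Q and dolichol. Of their 14 genes, 2 were lower and 2 higher (14.3% each), with a median of 0.11. Relative to the nearest genes, 1 was lower and none higher, and the median was 0.56. RCE1, a protease of prenylated proteins, was at 41.2 FPKM in siHNRNPA1 and 14.3 FPKM in sicontrol, and FNTA, the shared subunit of the prenyl transferases, was at 4.40 FPKM in siHNRNPA1 and 13.6 FPKM in sicontrol.

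Of 10 measured genes of the LXR axis and cholesterol export, 2 were lower (20%) and 1 higher (10%). Of all kept genes, 21.9% were lower and 12.4% higher. The median of this list was -0.38, and -0.44 relative to the nearest genes. NCOR1, a corepressor of nuclear receptors, was at 9.52 FPKM in siHNRNPA1 and 30.7 FPKM in sicontrol, and MYLIP, an LXR target that degrades lipoprotein receptors, was at 6.46 FPKM in siHNRNPA1 and 16.4 FPKM in sicontrol. Of 16 measured genes of lysosomal and membrane cholesterol transport, 8 were lower (50%, where 21.9% of all kept genes were) and 1 higher, with a median of -0.999. Relative to the nearest genes, 3 of the 16 were lower and 1 higher, with a median of -0.27, where 8.35% of all genes were lower and 8.11% higher. ACBD3, a Golgi protein, was at 2.45 FPKM in siHNRNPA1 and 13.1 FPKM in sicontrol, and LRPAP1, a chaperone of lipoprotein receptors, was at 19.9 FPKM in siHNRNPA1 and 5.56 FPKM in sicontrol. Of 26 measured genes of other fatty acid synthesis, elongation and activation, 7 were lower (26.9%) and 2 higher (7.69%). The median of these 26 was -0.46, and 0.03 relative to the nearest genes. ACSL4, which activates polyunsaturated fatty acids, was at 1.93 FPKM in siHNRNPA1 and 16.7 FPKM in sicontrol, and LPIN1, a phosphatidate phosphatase, was at 0.483 FPKM in siHNRNPA1 and 4.96 FPKM in sicontrol.

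**Figure D5:**
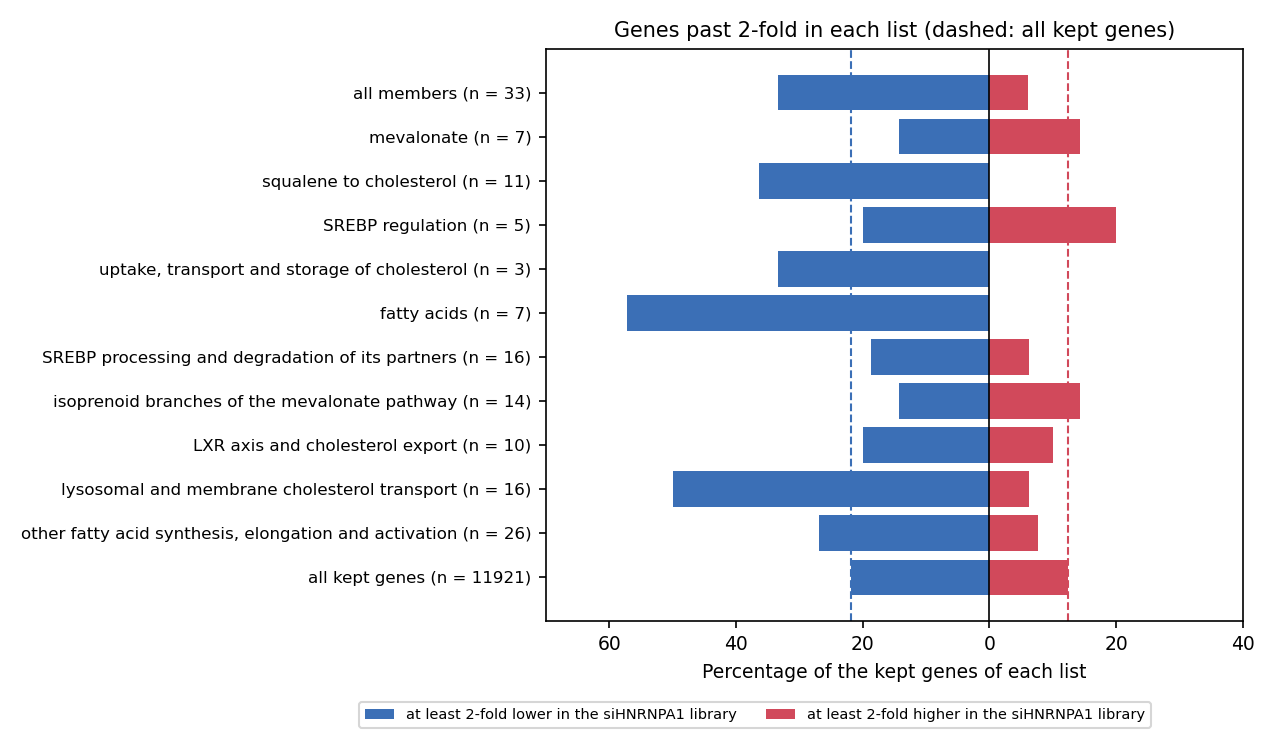
Percentage of the measured genes of each step and other pathway list at least 2-fold lower (bars to the left) or at least 2-fold higher (bars to the right) in siHNRNPA1, with dashed lines at the shares of all kept genes (21.9% lower, 12.4% higher) and n per list in brackets. The fatty acid step has the longest bar to the left (57.1% of 7 genes), and the steps squalene to cholesterol, uptake and fatty acids have no bar to the right.

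In GENCODE release 29, exons of 5 of the 34 genes overlap another gene on the same strand and those of 16 a gene on the opposite strand, and 5 (FDPS, CYP51A1, HSD17B7, SCD and FADS2) have pseudogene copies. No such overlap or copy was found for 15 genes, among them SC5D, SQLE, MSMO1, INSIG1, PMVK, ACACA and ELOVL6. Whether counting used strand is not given in the sources used here, so values of overlapping genes are uncertain. The half-width of the exact 95% interval of the log2 count-share ratio ran from 0.017 for FASN to 0.38 for INSIG2 among the 33 measured genes.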

How the data were processed

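RNA-seq of H9 cells treated with siHNRNPA1 or sicontrol was analysed from 1 deposited table of 95139 transcripts. The labels tie 1 library to each condition; 6 further columns of per-sample values were not used. Per the file headers the authors gave a count, TPM and FPKM for every transcript. Whole-number counts were deposited for overlapping transcripts alike, and were treated as estimated counts. TPM deposited by the authors is scaled to the same total in each library, and FPKM deposited by the authors to transcript length and library depth. No aligner or quantification program is given in the sources used here. Mouse builds, GRCm38 and mm10, stand in the submitters' processing notes, while the table holds human identifiers: 233 of the 235 transcripts described here have the same position in GENCODE release 29 (GRCh38), from which biotypes, GC content and lengths were taken.

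FPKM was summed per gene name and identifier, a pseudocount of 1 FPKM was added, and genes with a mean of at least 1 FPKM were kept (Python 3.11.15, pandas 2.3.3, scipy 1.17.1). A fixed-size rule of 2-fold replaced any test. Levels carry Poisson intervals of the summed counts, scaled by the gene's FPKM per count. Count-share ratios carry exact conditional binomial (Clopper-Pearson) intervals, and both are at 95%. Counts summed over overlapping transcripts are estimates, so these intervals cover counting error only, not the assignment of reads among transcripts. Transcript shares used 20 percentage points. All 34 genes are named; of each other list, the 2 measured genes with the largest absolute difference. The genes and lists were chosen with earlier results of these data known. Alternatives were pseudocounts of 0.1 and 5 FPKM, TPM, median ratio scaling, estimated counts scaled to the library total, filters of none and 5 FPKM, a 1.5-fold threshold and the difference relative to the median of the 100 nearest genes. The calculation of the differences was checked on simulated counts with known folds.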

Additional observations from a re-analysis of the deposited data

How the results depend on the processing

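No paired analysis was possible because each condition had 1 library. For the same reason no library could be left out. The count of genes at least 2-fold lower (11 as reported) was 6 with a pseudocount of 5 FPKM, 6 with median ratio scaling and 6 relative to the nearest genes' median. In the same order, 947, 2193 (both of 11921) and 995 (of 11916) of all kept genes were at least 2-fold lower, against 2609 as reported. Under the other alternatives at 2-fold, the count was from 9 to 12. FDFT1 and SCD, both at -1.004, left it in each setting that gave 6 and with estimated counts scaled to the library total. The count at least 2-fold higher (2) was 1 after subtraction of the nearest genes' median and 3 with median ratio scaling. At a 1.5-fold threshold 14 genes of the set were lower and 8 higher. The share of all kept genes past 1.5-fold is not given here, so those counts have no background. The median over the set (-0.30) was -0.46 with TPM, -0.15 with median ratio scaling and -0.38 with a filter at 5 FPKM, and it stayed below 0 under every alternative run. Genes with a transcript share difference numbered 18 at 10 percentage points (66.7%, where 62.5% of all eligible genes passed), against 10 at 20 points. The median over all kept genes (-0.13) turned to 0.000529 with median ratio scaling, 0.068 with the 5 FPKM filter and 0.0013 after the subtraction, because the first and the last of these centre it by construction. Among called genes, 36.2% of all and 15.4% of the set were higher; these shares were 46.5% and 33.3% with median ratio scaling, 27.4% and 14.3% with TPM, 47.0% and 25% with a pseudocount of 5 FPKM, and 49.3% and 14.3% after the subtraction. SREBF1 was called higher, and SC5D, SQLE, MSMO1 and INSIG1 lower, under each of these. The subtraction changed the sign of 10 genes (CYP51A1, IDI1, MVK, SCAP, INSIG2, FADS2, EBP, LSS, MVD and DHCR7). Depth limited INSIG2, whose counting intervals overlapped between the libraries. The FPKM intervals of DHCR7 and FADS1 overlapped too. Their log2 count-share ratios had exact 95% intervals of 0.22 to 0.35 (DHCR7) and 0.15 to 0.26 (FADS1). FADS2 had FPKM intervals that lay apart, at 249 to 256 in siHNRNPA1 and 220 to 226 in sicontrol. Its log2 count-share interval lay below 0, at -0.057 to -0.00015, so the direction of FADS2 depended on the measure. The spread between cultures is unknown.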
